A study of Mus musculus with 2 samples.

Results

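The alpha chains described here use the J segments TRAJ11, TRAJ12, TRAJ13, TRAJ15, TRAJ16, TRAJ17 and TRAJ18 of the mouse TCR alpha (TRA) locus. They were taken as all TRA contigs whose annotated J gene has a number from 10 to 20, and they make up 597 of the 3782 TRA chains, with 263 from WT and 334 from Btla-/- mice. These 7 segments are among 43 TRAJ segments with at least 1 chain. TRAJ19 and TRAJ20, which are not annotated as pseudogenes, and the pseudogene TRAJ14 lie in the same stretch. They had 0 of the 3782 chains, which allows a share of up to 0.0793%.

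Single-cell TCR sequencing was carried out on thymic CD4 single positive (SP) T cells of WT C57BL/6J mice and of C57BL/6-Btla KO mice, which lack the inhibitory receptor BTLA, all aged 8 to 12 weeks, with 1 library each. The cells were obtained by negative selection with a naive CD4 T cell kit, and both groups went through the same 10x Genomics V(D)J protocol, in which a barcode marks the cell and a unique molecular identifier (UMI) the molecule. The number of mice behind each library is not given in the sources used here, so each genotype is 1 sample, no test between genotypes was possible, and the exact (Clopper-Pearson) 95% intervals given with shares cover counting error only. Because the libraries hold TCR transcripts alone, neither the loss of Btla nor CD4 and other cell type markers could be checked in them.

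An alpha chain is made when a V segment (TRAV) is joined to a J segment in a developing thymocyte, and bases are trimmed and added at the joint. A further round of joining can replace the first chain with one built from a V segment further upstream and a J segment further downstream, so J segments near the 3′ end of the cluster, such as these, are known for being reached late. TRAJ18 is best known for the invariant chain that it forms with TRAV11 in invariant natural killer T (iNKT) cells, where the beta chain usually carries TRBV13, TRBV29 or TRBV1.

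The germline segments are printed because everything after the joint in these chains is read from them. They are from the GRCm38 genome, forward strand of chromosome 14, in the order in which they lie from 5′ to 3′, with the bases that can enter the CDR3, the loop between V and J that touches the antigen, in capitals.
TRAJ18, chr14:54200777-54200842: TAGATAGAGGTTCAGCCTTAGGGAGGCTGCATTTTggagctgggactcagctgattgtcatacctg
TRAJ17, chr14:54201775-54201837: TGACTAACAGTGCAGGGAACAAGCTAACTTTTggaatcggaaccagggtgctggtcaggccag
TRAJ16, chr14:54203134-54203194: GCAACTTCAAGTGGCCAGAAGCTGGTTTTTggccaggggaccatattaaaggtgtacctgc
TRAJ15, chr14:54204422-54204481: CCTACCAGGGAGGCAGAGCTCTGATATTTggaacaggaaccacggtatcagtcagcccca
TRAJ13, chr14:54205741-54205797: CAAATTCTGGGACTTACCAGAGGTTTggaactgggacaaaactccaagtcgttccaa
TRAJ12, chr14:54206553-54206610: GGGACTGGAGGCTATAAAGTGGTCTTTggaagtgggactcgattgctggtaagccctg
TRAJ11, chr14:54207139-54207197: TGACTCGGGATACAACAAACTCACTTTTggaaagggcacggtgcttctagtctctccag

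The part of the segment inside the CDR3 was longest in TRAJ18, with 11 whole codons, and shortest in TRAJ13, with 8. TRAJ16 and TRAJ17 had 10 codons each, and TRAJ11, TRAJ12 and TRAJ15 had 9. All 7 segments end the CDR3 with phenylalanine and continue with the glycine motif of a working J segment, which was not found in TRAJ14, TRAJ19 or TRAJ20. The 7 bases directly before a J segment are the heptamer at which the recombinase cuts. They read CACTGTG on the forward strand before 5 of the 7 segments, with no shift of the annotated start allowed. This compares with 13 of the 43 TRAJ segments with a chain and 15 of all 60 annotated ones, the 7 included in both. Before TRAJ11 they read TGCTGTG, and before TRAJ13 they read TACAGTG.

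The chains rested on few molecules. In WT 1862 TRA chains were backed by 7697 UMIs, and in Btla-/- 1920 chains by 6039 UMIs. Chains of TRAJ11 to TRAJ18 had a median of 4 UMIs in WT and 3 UMIs in Btla-/-, and 3 UMIs was the median of the other TRA chains in both. A single UMI supported 30 of the 263 WT chains (11.4%) and 59 of the 334 Btla-/- chains (17.7%), against 13.7% and 18.9% of other TRA chains. By segment the median number of UMIs ran from 3 to 4 in WT and from 2 to 3 in Btla-/-. The libraries shared 30 barcodes, which held 2 of the WT chains and 1 of the Btla-/- chains described here, so results are also given without them.

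Together the 7 segments supplied 14.1% (12.6 to 15.8%) of TRA chains in WT and 17.4% (15.7 to 19.2%) in Btla-/-. The difference was 3.27 percentage points and the ratio 1.23, and the intervals of the shares overlapped at their ends. The counting interval of the difference itself ran from 0.952 to 5.59 points and left out equal shares. It reflects counting error alone, so it does not tie the difference to genotype. Without the shared barcodes the shares were 14.1% and 17.4%, and the difference was 3.32 points. With only contigs of at least 3 UMIs they were 15.3% and 18.7%. On either side, TRAJ2 to TRAJ9, further downstream, supplied 12.9% (11.4 to 14.5%) of WT chains and 20% (18.2 to 21.9%) of Btla-/- chains, with intervals apart, and TRAJ21 to TRAJ30 supplied 21.6% (19.8 to 23.6%) and 20.6% (18.8 to 22.5%), with intervals that overlapped.

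TRAJ12 was the most used of the segments in WT, with 58 chains (3.11%, 2.37 to 4.01%), and had 64 chains (3.33%, 2.58 to 4.24%) in Btla-/-. TRAJ15 was the most used in Btla-/-, with 72 chains (3.75%, 2.95 to 4.70%), against 47 chains (2.52%, 1.86 to 3.34%) in WT. Its ratio of 1.49 was the largest of the 7, and its intervals overlapped. The counting interval of its difference ran from 0.117 to 2.33 points and left out equal shares, while those of the other segments included them. These intervals make no allowance for the number of segments compared. How many of all TRAJ segments would leave out equal shares in this way was not counted, so the interval does not set TRAJ15 apart from them. TRAJ13 supplied 33 WT chains (1.77%, 1.22 to 2.48%) and 48 Btla-/- chains (2.50%, 1.85 to 3.30%). TRAJ17 supplied 40 WT chains (2.15%, 1.54 to 2.91%) and 51 Btla-/- chains (2.66%, 1.98 to 3.48%). These shares lie in the middle of the range, and neighbours in their order overlap in both libraries. TRAJ18 supplied 40 WT chains (2.15%, 1.54 to 2.91%) and 47 Btla-/- chains (2.45%, 1.80 to 3.24%). TRAJ16 supplied 28 WT chains (1.5%, 1 to 2.17%) and 27 Btla-/- chains (1.41%, 0.929 to 2.04%). TRAJ11 was the least used, with 17 WT chains (0.913%, 0.533 to 1.46%) and 25 Btla-/- chains (1.30%, 0.844 to 1.92%).

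The share was higher in the Btla-/- library for 6 of the 7 segments, all but TRAJ16, where 39% of the 41 TRAJ segments that reached 1% of TRA chains in WT or Btla-/- were higher. None of the 7 differed by more than 1.5-fold in either direction, against a background of 19.5% of the 41 segments. None had intervals that lay apart, against 7.32% of the 41 segments. TRAJ12 turned to a lower share in Btla-/- when contigs with under 3 UMIs were left out, by 0.416 points.

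**Figure D1:**
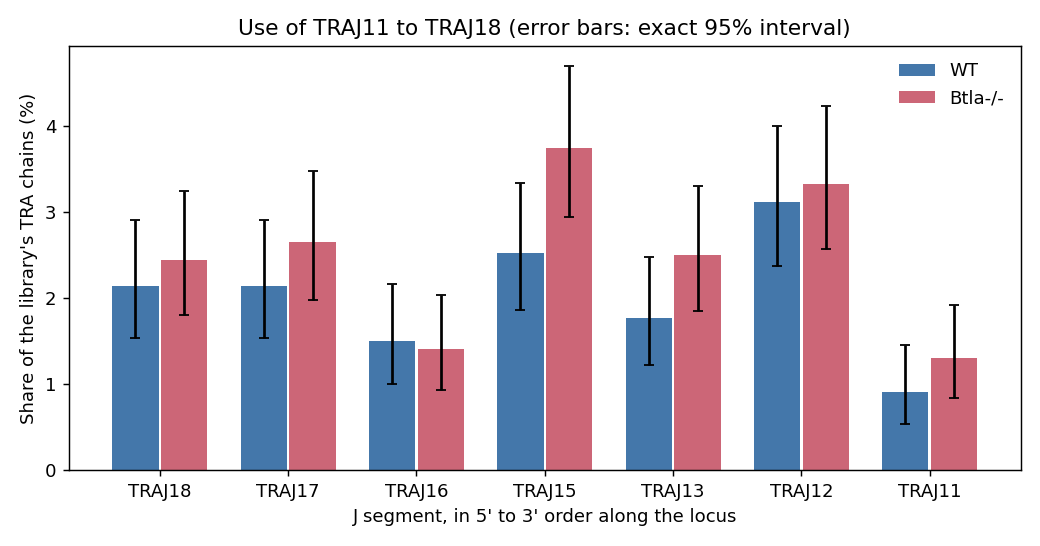
Share of each library's TRA chains (%, vertical axis) that used each segment, for the WT and Btla-/- libraries, with exact 95% intervals as error bars and the segments in their order along the locus. The bars are highest for TRAJ12 in WT (3.11%) and TRAJ15 in Btla-/- (3.75%), and the intervals of the 2 libraries overlap at each segment.

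The V segments joined to TRAJ11 to TRAJ18 came from the middle and far parts of the TRAV cluster. The distance from the 3′ end of the V gene to the start of the TRAJ cluster had a median of 895 kb (quartiles 803 and 1032 kb) in WT and 901 kb (quartiles 809 and 1303 kb) in Btla-/-. For the other TRA chains the medians were 725 kb in WT and 830 kb in Btla-/-. Without the shared barcodes the medians of the 7 segments were 886 and 901 kb. The neighbours TRAJ2 to TRAJ9 had medians of 895 and 928 kb, and TRAJ21 to TRAJ30 had 836 and 852 kb. The 7 segments thus lay between their neighbours in Btla-/- and level with TRAJ2 to TRAJ9 in WT.

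The V segments nearest to the J cluster were absent. TRAV17 to TRAV21 were joined to 0 of the 263 WT chains, which allows a share of up to 1.14%, and to 0 of the 334 Btla-/- chains, which allows up to 0.898%. Among the other TRA chains they made up 83 of 1599 in WT (5.19%, 4.16 to 6.39%) and 65 of 1586 in Btla-/- (4.10%, 3.18 to 5.19%). The share was highest with the most upstream segments, TRAJ42 to TRAJ58, at 12.3% in WT and 12.0% in Btla-/-. It was as low in the neighbours as in the 7 segments, with 1 of 624 chains of TRAJ2 to TRAJ9 and 2 of 798 chains of TRAJ21 to TRAJ30 over both libraries. The nearest V gene that any of the 597 chains used was TRAV6-7-DV9, at 445 kb.

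**Figure D2:**
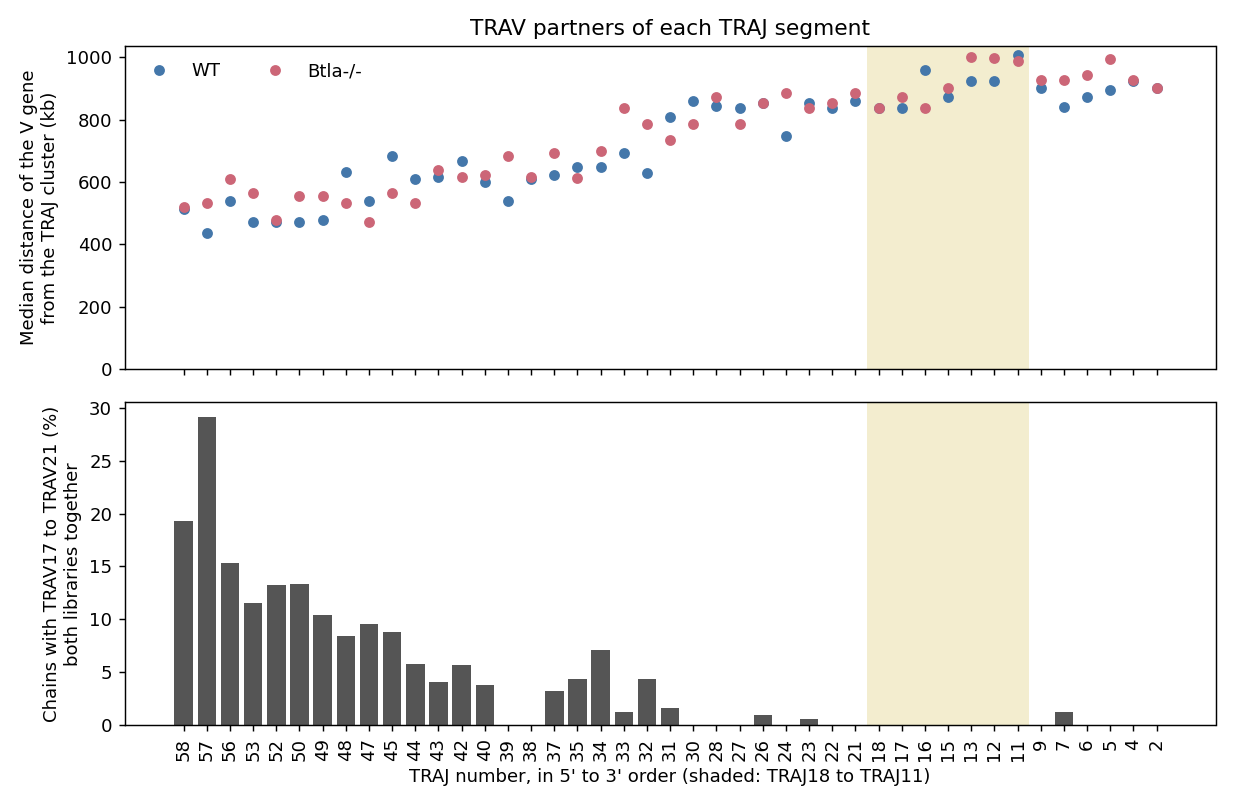
Median distance of the V gene from the TRAJ cluster (kb, upper panel, 1 point per library) and share of chains with TRAV17 to TRAV21 (%, both libraries together, lower panel) for each TRAJ segment in 5′ to 3′ order, with TRAJ18 to TRAJ11 shaded. Medians in the shaded stretch run from 836 to 1008 kb, and its bars are at 0, while TRAJ57 reaches 29.1%.

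Among the 7 segments the median distance ran from 836 kb for TRAJ18 in both libraries to 1008 kb for TRAJ11 in WT and 1000 kb for TRAJ13 in Btla-/-. The values did not follow one order in both libraries: TRAJ16 had 957 kb in WT and 836 kb in Btla-/-. TRAJ12 had 923 kb in WT and 998 kb in Btla-/-, TRAJ15 had 871 and 901 kb, and TRAJ17 had 839 and 871 kb. The order-statistic intervals of these medians overlapped between the libraries for each of the 7 segments.

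Most of the V genes belonged to the duplicated stretch of the TRAV cluster. Copies with an N in their name were used by 54.8% of the WT chains and 46.1% of the Btla-/- chains of the 7 segments, against 31% and 36.4% of other TRA chains. The share was higher still in the neighbours TRAJ2 to TRAJ9, at 60.8% in WT and 61.7% in Btla-/-. In TRAJ21 to TRAJ30 it was 40.9% and 40.3%. Copies with a D were used by 17.5% and 24.0% of the chains of the 7 segments. These copies are nearly identical to one another, and the annotation of a contig can exchange them, which shifts the distance of a chain. Subgroups, which fold the copies together, are free of this.

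TRAV7, TRAV6 and TRAV13 were the subgroups most often joined to the 7 segments, with 109, 96 and 60 chains over both libraries. TRAV7 was used by 14.8% (10.8 to 19.7%) of the WT chains and 21% (16.7 to 25.7%) of the Btla-/- chains, against 12.3% and 13.9% of other TRA chains. In Btla-/- the interval of TRAV7 lay above that of the other chains (12.2 to 15.7%), and in WT the intervals overlapped. TRAV7 was not alone in this. Intervals also lay apart for TRAV3 in WT (7.60% against 3.56%) and TRAV4 in Btla-/- (4.49% against 8.83%), each in that library only. They lay apart for TRAV11 and TRAV21 in both libraries. Subgroup shares were not computed for the neighbouring TRAJ stretches. TRAV6 was used by 15.6% and 16.5% of the chains, against 16.2% and 15.4% elsewhere. TRAV13 was used by 9.13% and 10.8%, against 10.6% and 10.9%.

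By segment, TRAV6 was the leading subgroup of TRAJ11 (11 of 42 chains), TRAJ12 (25 of 122) and TRAJ16 (11 of 55). TRAV7 led for TRAJ13 (17 of 81), TRAJ15 (26 of 119) and TRAJ17 (20 of 91). For TRAJ18 TRAV11 had most chains over both libraries, 17 of 87, followed by TRAV7 with 14 and TRAV6 with 12, but it led in neither library alone. In WT TRAV6 had 9 chains and TRAV11 had 8, and in Btla-/- TRAV7 had 10 and TRAV11 had 9. The other 6 segments had TRAV11 in 0 of 510 chains, which allows a share of up to 0.588%. Among TRA chains of J segments outside the stretch described here, TRAV11 made up 10 of 3185 over both libraries (0.314%). This lies below that limit, so the count of 0 does not set the 6 segments apart from other TRA chains.

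CDR3 length was greatest for the segment with the most germline codons and least for the one with the fewest. Chains of TRAJ18 had the longest CDR3, with 15 ± 1.19 amino acids (mean ± SD over 40 chains) in WT and 15.1 ± 0.996 over 47 chains in Btla-/-. TRAJ13 had the shortest, with 12.7 ± 0.801 in WT and 12.8 ± 1.23 in Btla-/-. TRAJ17 was nearest to TRAJ18, with 14.4 ± 1.22 and 14 ± 1.31. Means of TRAJ11, TRAJ15 and TRAJ16 lay between 13.2 and 13.9 in both libraries, and TRAJ12 had 13.1 ± 1.14 in WT and 13.0 ± 1.19 in Btla-/-. Over all 7 segments the mean was 13.7 in WT and 13.6 in Btla-/-, and other TRA chains had 13.8 and 13.7. For each segment the difference between the libraries was smaller than the SD over its chains, and the shortest CDR3, of 7 residues, belonged to a single TRAJ13 chain of the Btla-/- library.

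**Figure D3:**
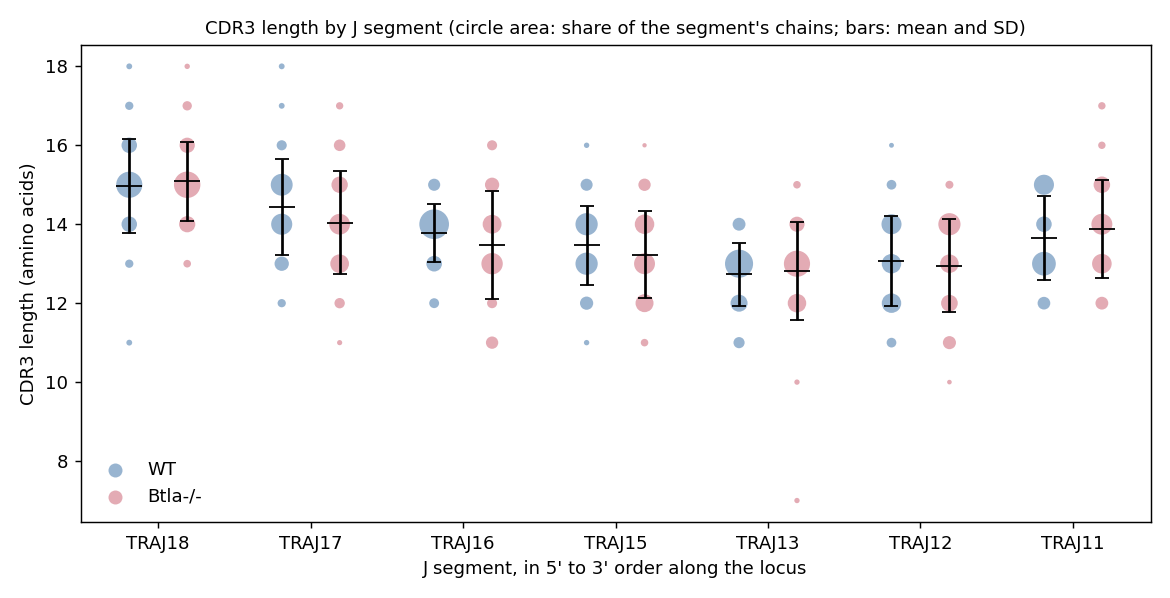
CDR3 length (amino acids, vertical axis) of the chains of each segment in the WT and Btla-/- libraries, with circle area giving the share of the segment's chains at that length and black bars the mean and SD over chains. TRAJ18 sits highest, at 15 and 15.1, and TRAJ13 lowest, at 12.7 and 12.8.

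Trimming of the J end differed between the segments more than between the libraries. Chains of the 7 segments had lost 2.86 ± 2.38 bases (mean ± SD) of the germline J end in WT and 2.87 ± 2.53 bases in Btla-/-, and other chains had lost 3.12 and 3.18 bases. TRAJ11 was trimmed least, by 1.29 and 1 bases, and 8 of its 17 WT chains and 15 of its 25 Btla-/- chains kept the whole segment. TRAJ18 kept the whole segment in 1 of 40 and 1 of 47 chains and had lost 4.3 and 3.87 bases. TRAJ17 had lost 3.45 bases in WT and 4.33 bases in Btla-/-. The mean for the other segments was 1.78 to 3.49 bases. Bases at the joint that matched neither germline end averaged 3.27 ± 2.58 in WT and 3.02 ± 2.16 in Btla-/-, against 3.43 and 3.39 in other chains.

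The trimming is visible in the residues that the J segment encodes. The first germline residue of the segment and everything after it were present in 29 of 42 TRAJ11 chains (aspartate, 69.0%) and 52 of 81 TRAJ13 chains (asparagine, 64.2%) over both libraries. The counts were lower for TRAJ18 (aspartate, 34 of 87), TRAJ12 (glycine, 43 of 122) and TRAJ15 (tyrosine, 40 of 119). They were also low for TRAJ16 (alanine, 16 of 55) and TRAJ17 (threonine, 26 of 91). From the third germline residue on the segments were nearly whole, from 51 of 55 chains of TRAJ16 (92.7%) to 119 of 119 chains of TRAJ15.

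Of the 40 TRAJ18 chains in WT, 8 (20%, 9.05 to 35.6%) were joined to TRAV11, and of the 47 in Btla-/-, 9 (19.1%, 9.15 to 33.3%). These amount to 0.430% (0.186 to 0.845%) and 0.469% (0.215 to 0.888%) of all TRA chains, with no difference detectable at this depth. With each distinct chain counted once they were 0.330% and 0.270%, and TRAV11 made up 15.8% of the WT and 11.9% of the Btla-/- TRAJ18 chains. None came from the shared barcodes. All were annotated with TRAV11 itself (chr14:53519303-53519859, 635 kb from the J cluster), a call that can exchange near-identical copies. The copies TRAV11D and TRAV11N had 0 of the 3782 chains, which allows up to 0.0793%. TRAV11N is annotated as a pseudogene and only productive contigs were counted, so its 0 was largely fixed beforehand. TRAJ18 was in turn the partner of 8 of 15 TRAV11 chains in WT (53.3%) and 9 of 12 in Btla-/- (75%). Chains with TRAV11 had 1, 1, 1, 3, 4, 4, 6 and 8 UMIs in WT and 1, 2, 2, 2, 3, 3, 4, 4 and 4 UMIs in Btla-/-, so 4 of the 17 rested on 1 molecule.

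The invariant CDR3 was present in 6 of the 8 WT chains and 7 of the 9 Btla-/- chains. At the nucleotide level the same 15 residues were written in 4 ways, and the 3 found in several cells are printed, with bases given by neither the V nor the J germline end in capitals. The first was found in 2 WT and 4 Btla-/- cells, the second in 1 WT and 2 Btla-/- cells, and the third in 2 WT and 1 Btla-/- cell.
TRAV11-TRAJ18, invariant, 6 cells: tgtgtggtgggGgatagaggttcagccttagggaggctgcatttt
TRAV11-TRAJ18, invariant, 3 cells: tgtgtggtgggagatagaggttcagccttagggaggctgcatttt
TRAV11-TRAJ18, invariant, 3 cells: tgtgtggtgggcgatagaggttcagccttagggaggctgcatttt
For comparison, the most frequent CDR3s of TRAJ18 with another V were the following, the first in 1 WT cell with TRAV9D-4 and 1 Btla-/- cell with TRAV9N-4, and the second in 2 Btla-/- cells with TRAV4-2.
TRAJ18 with TRAV9D-4 or TRAV9N-4: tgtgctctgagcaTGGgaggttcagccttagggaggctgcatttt
TRAJ18 with TRAV4-2: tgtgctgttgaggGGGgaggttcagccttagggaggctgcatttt

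The printed forms of the invariant CDR3 differ only at the joint, where 1 base or none is foreign to both germline ends, and go on with the gatagagg of the TRAJ18 segment. In both chains with another V these bases were cut back to gagg. The invariant CDR3 was found with another V in 0 of 32 WT chains (up to 9.38%) and 0 of 38 Btla-/- chains (up to 7.89%). In its printed forms the first 11 to 13 bases are those of germline TRAV11, so another V could hardly give it. These 0 counts thus follow largely from how the CDR3 is defined.

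TRAV11-TRAJ18 chains held fewer foreign bases than other TRAJ18 chains. Of the J end they had lost 3.13 ± 2.47 bases in WT and 2.22 ± 1.48 bases in Btla-/-, against 4.59 ± 2.65 and 4.26 ± 2.21 bases without TRAV11. Asp-Arg-Gly, the residues that open the TRAJ18 segment, were present in 7 of 8 WT chains and 8 of 9 Btla-/- chains with TRAV11, whichever bases encoded them. In 1 of the WT chains 3 foreign bases wrote part of them. Without TRAV11 they were present in 10 of 32 WT chains (31.3%, 16.1 to 50.0%) and 9 of 38 Btla-/- chains (23.7%, 11.4 to 40.2%). In Btla-/- the intervals lay apart (51.8 to 99.7% with TRAV11), and in WT they overlapped (47.3 to 99.7%). Chains with TRAV11 held 1 ± 1.07 foreign bases (mean ± SD, 8 chains) in WT and 1 ± 1 (9 chains) in Btla-/-, and those without held 3.47 ± 2.20 (32 chains) and 3.24 ± 2.15 (38 chains). The CDR3 was 15 residues long in 7 of 8 and 9 of 9 chains with TRAV11, and in 13 of 32 and 15 of 38 chains without it. Mean length hardly differed, at 14.8 and 15 residues with TRAV11 and 15 and 15.1 without, and it was the spread that was narrower. TRAJ18 chains without TRAV11 drew on 40 V genes of 13 subgroups and formed 68 distinct nucleotide sequences in 70 chains, against 8 distinct sequences in the 17 chains with TRAV11.

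TRBV13 led among the beta chains of cells with a TRAJ11 to TRAJ18 chain, at shares whose intervals overlapped those of other cells. A TRB chain was found in 249 of these cells in WT and 311 in Btla-/-, and the most used subgroups were TRBV13, TRBV12 and TRBV5. TRBV13 was present in 25.7% (20.4 to 31.6%) of the WT cells and 20.3% (15.9 to 25.2%) of the Btla-/- cells, against 21.9% and 22.9% of cells with another TRA chain. Here the joint call of TRBV12-2 and TRBV13-2 was counted as TRBV13, and without it the shares were 15.7% and 11.3%. TRBV12 was present in 13.7% and 10.6% of cells, and TRBV5 in 8.84% and 7.72%. TRBV29 was present in 2.81% and 5.47% of cells, and TRBV1 in 5.62% and 7.72%. Some less used subgroups had intervals below those of cells with another TRA chain. These were TRBV10 in WT (1.61% against 5.22%) and TRBV2 in Btla-/- (2.25% against 6.00%). In the other library the intervals of each overlapped. By segment, TRBV13 had most cells for all 7 over both libraries, from 10 of 55 cells with TRAJ16 (18.2%) to 13 of 42 cells with TRAJ11 (31%). Within the libraries this held with exceptions. In WT TRBV12 had as many cells as TRBV13 for TRAJ15 and TRAJ16, and in Btla-/- other subgroups led for TRAJ13, where TRBV13 had 4 of 44 cells against 11 of 33 in WT, and for TRAJ16, where it had 3 of 27.

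Cells with the TRAV11-TRAJ18 chain departed from this. All 8 in WT carried TRBV13, TRBV29 or TRBV1 (100%, 63.1 to 100%), with 6, 1 and 1 cells. In Btla-/- 7 of 9 did (77.8%, 40 to 97.2%), with 3 cells for TRBV13 and 4 for TRBV29, and the remaining cells carried TRBV5 and TRBV15. Of the TRBV13 cells, 3 in WT and 2 in Btla-/- carried the joint call of TRBV12-2 and TRBV13-2, which was counted as TRBV13. All 17 cells had exactly 1 TRB chain and no second TRA chain, and their TRB CDR3s were all different within each library. Of cells with TRAJ18 and another V, 7 of 30 in WT (23.3%, 9.93 to 42.3%) and 17 of 33 in Btla-/- (51.5%, 33.5 to 69.2%) carried one of these subgroups. With the joint call counted as TRBV13, the intervals with and without TRAV11 lay apart in WT and overlapped in Btla-/-. They were not computed with that call kept apart. In cells with another TRA chain the share was 31.9% in WT and 32.0% in Btla-/-.

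The share in Btla-/- cells with TRAJ18 and another V owed 7 cells to TRBV1 (21.2%, 8.98 to 38.9%), against 1 of 30 such cells in WT. Of cells with another TRA chain in Btla-/-, 5.38% (4.27 to 6.66%) carried TRBV1. The 7 cells held 6 distinct pairs of chains, since 2 of them had the same alpha and the same beta chain. This subgroup was singled out after its values were seen.

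**Figure D4:**
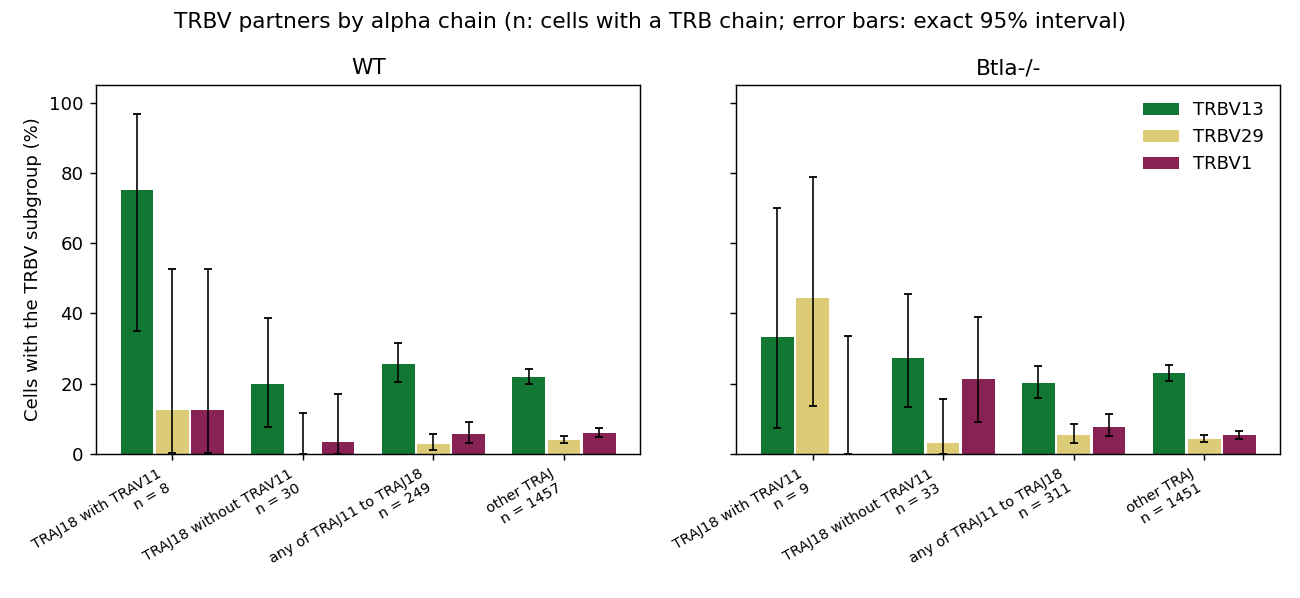
Share of cells (%, vertical axis) that carried TRBV13, TRBV29 or TRBV1, for cells with TRAJ18 and TRAV11, TRAJ18 and another V, any of TRAJ11 to TRAJ18, or another TRAJ, in the WT (left) and Btla-/- (right) libraries, with exact 95% intervals. TRBV13 reaches 75% of the 8 WT cells with TRAV11-TRAJ18 and TRBV29 reaches 44.4% of the 9 Btla-/- cells, and the intervals of these small groups are wide.

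A second alpha chain was found in 43 of the 253 WT cells (17%, 12.6 to 22.2%) and 35 of the 326 Btla-/- cells (10.7%, 7.59 to 14.6%) that held one of the 7 segments. Counted in the same way, the cells of each of the other 4 stretches of the TRAJ cluster had a second chain in 10.7 to 15.3% in WT and 8.88 to 11.2% in Btla-/-, and all their intervals overlapped those of the 7 segments. Cells with TRAJ18 had a second chain least often, in 3 of 40 and 2 of 47 cells. Droplets with 2 cells were not removed, and their part in these counts was not tested.

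The second chain mostly used a J segment close to the first. In WT 10 of the 43 cells, and in Btla-/- 8 of the 35, held TRAJ11 to TRAJ18 on both chains. Counted over chains, the other chain of the cell was again one of the 7 segments for 20 of 53 WT chains (37.7%, 24.8 to 52.1%) and 16 of 43 Btla-/- chains (37.2%, 23.0 to 53.3%). For chains of the upstream stretch TRAJ42 to TRAJ58 the other chain was one of the 7 segments for 1.16% (0.0294 to 6.31%) in WT and 2% (0.0506 to 10.6%) in Btla-/-, with intervals apart from those of the 7 segments. The neighbours were not set apart: the share was 34.8% (21.4 to 50.2%) and 22.2% (12 to 35.6%) for TRAJ2 to TRAJ9, and 20.6% (11.5 to 32.7%) and 25.5% (13.9 to 40.3%) for TRAJ21 to TRAJ30. Other stretches also paired with themselves, TRAJ2 to TRAJ9 for 52 of 100 chains and TRAJ42 to TRAJ58 for 82 of 136 chains over both libraries. Both chains of a cell enter these counts, so a cell with both chains in one stretch counts for each of them. The intervals treat the chains as independent and are therefore too narrow, and intervals that lie apart here are a description only. In cells with exactly 1 TRB chain the share was 20 of 46 in WT and 14 of 34 in Btla-/-. TRAJ segments numbered 30 or less were on the other chain for 92.5% and 93.0% of the chains, a value shared with TRAJ2 to TRAJ9, at 93.5% and 87.0%, while TRAJ42 to TRAJ58 had 14% and 22%. In 1 Btla-/- cell both contigs had the same CDR3.

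**Figure D5:**
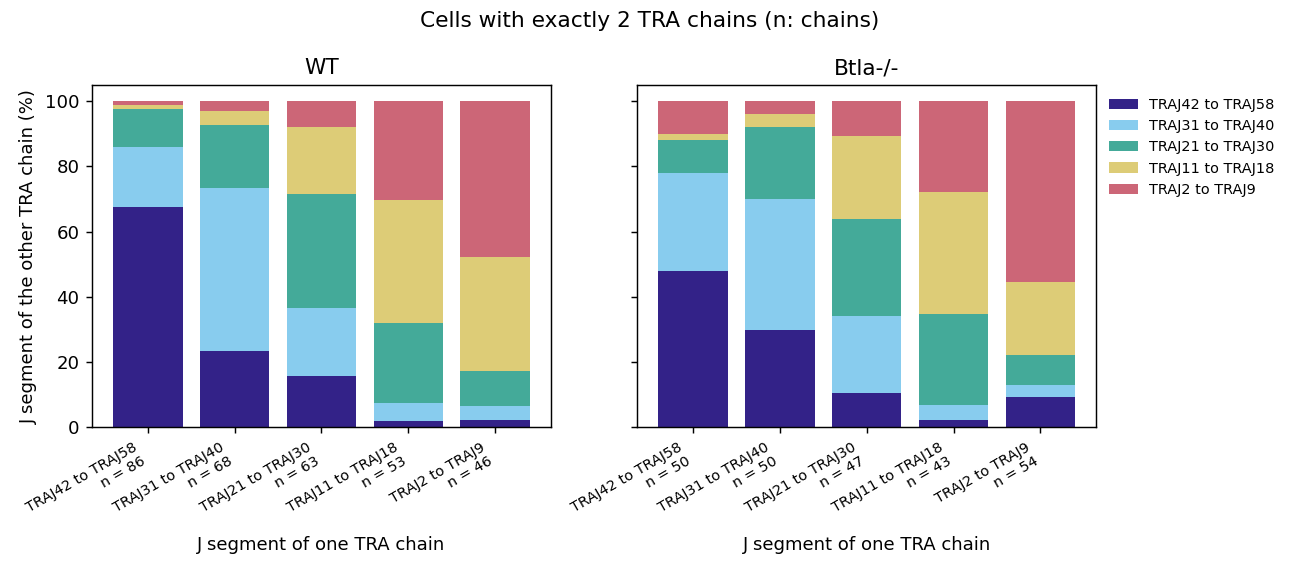
J segments on the other TRA chain (%, stacked to 100%, vertical axis) for each chain in a cell with exactly 2 TRA chains, by the J segment of the first (horizontal axis), in the WT (left) and Btla-/- (right) libraries. For TRAJ11 to TRAJ18 the other chain is again in that stretch for 37.7% and 37.2% of chains, and in TRAJ42 to TRAJ58 for 1 chain in each library.

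Within a library, few chains of the 7 segments recurred. In WT 6 chains with the same V, J and CDR3 nucleotides were found in 2 or more cells, 12 cells in all, and in Btla-/- 14 chains in 30 cells. For 4 of the 6 and 9 of the 14, cells that shared the alpha chain also had the same TRB CDR3. The repeated TRAV11-TRAJ18 chains, 2 in each library, were paired with a different TRB CDR3 in each cell. Between the libraries, 20 amino acid CDR3s of the 7 segments were common, which is 8.06% of the 248 distinct ones in WT and 6.64% of the 301 in Btla-/-. For other TRA chains the common CDR3s were 4.73% of the WT set and 4.89% of the Btla-/- set. Among the 7 segments TRAJ12 had 6 common CDR3s and TRAJ15 had 5.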

How the data were processed

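TRA and TRB contigs of 1 WT and 1 Btla-/- library were used. The authors assembled and annotated them in Cell Ranger 7.2.0 against GRCm38. The deposited read and UMI values are unnormalized counts for each productive contig of a called cell. Summary tables that the authors made from these contigs were not used.

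Every productive contig was counted, and subgroups follow the number in the V gene name. Positions and germline bases come from GENCODE M21 and the GRCm38 genome. The J bases kept are the longest run from the 3′ end of the CDR3 that equals the germline segment, likewise V from the 5′ end, so a chance match counts as germline. This step and the intervals were tested on simulated data. In 2000 simulated chains the step counted too many germline bases, by a mean of 0.281 at the J end and 0.251 at the V end. Bases lost and bases of neither germline end are thus counted somewhat low.

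The members and lists were chosen with earlier results of these data known. The named genes are all segments of the stretch, the 3 leading TRAV and TRBV subgroups, each segment's leading TRAV, TRAV11, TRBV13, TRBV29 and TRBV1. A count of 0 is given with the share that 3 counts would make. Shares rest on 1862 WT and 1920 Btla-/- chains. Computations used Python 3.11.15, pandas 2.3.3, SciPy 1.17.1, NumPy 2.4.6 and matplotlib 3.10.9.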

Additional observations from a re-analysis of the deposited data

How the results depend on the processing

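The alternatives were contigs with at least 3 UMIs, each distinct chain counted once, cells with exactly 1 TRA and 1 TRB chain, shared barcodes left out, the TRA contig with most reads per cell, V genes with D or N copies left out, the joint TRBV call kept apart, and mean in place of median UMIs. Of 136 recomputed values, 130 stayed within the counting interval of the value reported. The share of TRAJ12, higher in Btla-/- as reported, turned to 0.416 points lower (-0.416) with at least 3 UMIs, and the cause was not tested. With the joint call kept apart, TRBV13 fell to 15.7% of WT and 11.3% of Btla-/- cells, which follows from leaving that call out. With V genes that have D or N copies left out, the median distance of the V gene was 1726 kb in both libraries, over the 5 WT and 13 Btla-/- chains that remain. The mean number of UMIs was 4.45 in WT and 3.25 in Btla-/-. The difference in the share of the 7 segments kept its direction under the 5 alternatives applied to it, from 2.98 to 3.67 points. With 1 library per genotype, no interval here covers differences between mice or library preparations. No paired analysis was possible because each genotype has 1 library and no replicate numbers.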
